A study of Mus musculus with 6 samples.

Results

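The chaperone genes of the cytosol and mitochondria were followed in mouse cortical neurons in which the microRNA miR-27b was knocked down. Members were all probes whose gene symbol named an Hsp70, Hsp110, small heat shock, Hsp60 or Hsp10 protein, an Hsp90 alpha gene, a J-domain protein of the Dnaja, Dnajb or Dnajc groups, or a subunit of the CCT chaperonin. The endoplasmic reticulum genes Hspa5, Dnajb9, Dnajb11 and Dnajc3 were left out. The rule took 130 of the 45281 probes, for 75 genes. Of these probes 82 were detected (detection p under 0.05 on at least 3 arrays), against 18627 in the whole table. They gave 56 tested genes of 10822, each represented by its brightest detected probe. The members are not all cytosolic or mitochondrial, since the J-domain groups include proteins of the endoplasmic reticulum such as Dnajc10 and Dnajb12.

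The miR-27b knockdown group (miR-27bKD) held 3 arrays of neurons given a lentivirus that lowers miR-27b, and the control group (CTKD) held 3 arrays of neurons given a control lentivirus. All neurons were dissociated from the cortex of C57BL/6J mice of genotype Dicerflox/flox, and the labels name no Cre. They were plated at 500000 per well, took up lentivirus at a multiplicity of infection of 5 once attached, and were harvested at day 14 in vitro. The series counts 3 neuronal preparations for its 6 samples, and same-numbered arrays were taken as pairs from 1 preparation. No animal numbers or ages are given. The p-values measure the spread between the 3 arrays of each group, and the pairs enter only where the replicate block is named. The array names no probe for miR-27b, so the knockdown itself was not checked here. The mature strand miR-27b-3p is shown for orientation, from RefSeq (GRCm38.p6, chr13:63300760-63300780, plus strand), with the seed, bases 2 to 8, in capitals.
mmu-miR-27b-3p: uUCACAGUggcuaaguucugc

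Chaperones bind unfolded or partly folded proteins and help them reach or regain their native form. Hsp70 proteins do this in cycles driven by ATP: J-domain proteins deliver clients and start hydrolysis, and exchange factors such as the Hsp110 proteins reset the cycle. Hsp90 matures kinases and steroid receptors, small heat shock proteins hold unfolding proteins without using ATP, and the Hsp60 and CCT chaperonins enclose a protein in a chamber. Several of these genes are induced by the transcription factor Hsf1 after heat or other proteotoxic stress. In neurons, J-domain proteins also serve the synapse, where auxilin (Dnajc6) uncoats clathrin-coated vesicles and cysteine string protein (Dnajc5) keeps release proteins folded.

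Between 17498 and 19163 probes were detected per array, and mean intensity lay between 669.5 and 787.8. Any pair of arrays had a Spearman correlation of 0.876 to 0.907 over all probes. Knockdown replicate 3 had the lowest number of detected probes and the lowest mean intensity. Precision is limited by there being 3 arrays per group. Values below are log2 intensities after background correction and quantile normalisation. Differences are knockdown minus control on that scale, and adjusted p is limma's, by Benjamini-Hochberg over all genes tested. A gene was called higher or lower at an adjusted p under 0.05.

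Most chaperone genes did not pass the test, and most of those that passed were lower after knockdown. Of the 56 tested genes, 3 were higher (Dnajb3, Dnajc12 and Dnajc21), 10 were lower (Hspa2, Dnajc28, Hspa1b, Dnajc18, Hspb8, Dnajb5, Hspe1, Hspb6, Dnajc10 and Dnajc6) and 43 did not pass. The share of chaperone genes called was 23.2%, where 32.5% of all tested genes were called. By direction, 5.36% of chaperone genes were higher, against 17.1% of all genes, and 17.9% were lower, against 15.4% of all genes. The share lower lay near that of all genes, and no test set the chaperone genes against the rest. With same-numbered arrays blocked, 3 chaperone genes were higher and 9 lower, beside 17.8% higher and 16.4% lower of all genes. When each array was scaled to its median instead of quantile normalised, 689 of all genes were higher and 1310 lower, against 1852 higher and 1664 lower with quantile normalisation. Under that scaling 2 chaperone genes were higher and 7 lower: Dnajb5, Dnajc6, Dnajc10, Dnajc12, Dnajc21 and Hspb6 lost their calls (adjusted p from 0.0565 to 0.747), and Hspa1a (0.0491) and Hspa4l (0.0362) gained one. Leaving out knockdown replicate 1 left 1 higher and 5 lower genes, and leaving out knockdown replicate 2 left 1 higher and 6 lower. Leaving out control replicate 1 left 1 higher and 5 lower genes, and leaving out control replicate 3 left 1 higher gene. Without the pair of replicate 1 the counts were 0 higher and 4 lower, and without that of replicate 2 they were 1 higher and 4 lower. The calls over all genes fell too. They numbered 1376 higher and 1258 lower without knockdown replicate 1, and 1309 and 1204 without knockdown replicate 2. Without control replicate 1 they were 1227 and 1018, and without control replicate 3 they were 1529 and 1334. Leaving out the pair of replicate 1 gave 602 higher and 557 lower, and that of replicate 2 gave 712 and 661.

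The differences of the chaperone genes were small. Their median absolute difference was 0.15, against 0.26 over all genes tested. In all, 66.1% of the chaperone genes differed by less than 0.25, against 49.4% of all genes, and 1 of 56 chaperone genes, Hspa2, differed at least 2-fold, as did 584 of all 10822 genes. The median signed difference was -0.065 for the chaperone genes and 0.009 for all genes. With median scaling the median of all genes moved to -0.13 and that of the chaperone genes to -0.23, which left the chaperone genes 0.11 below all genes. The arrays of the groups did not overlap for 5 chaperone genes that were higher and 19 that were lower, while 25.4% of all genes did not overlap and were higher and 23.4% did not overlap and were lower.

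**Figure D1:**
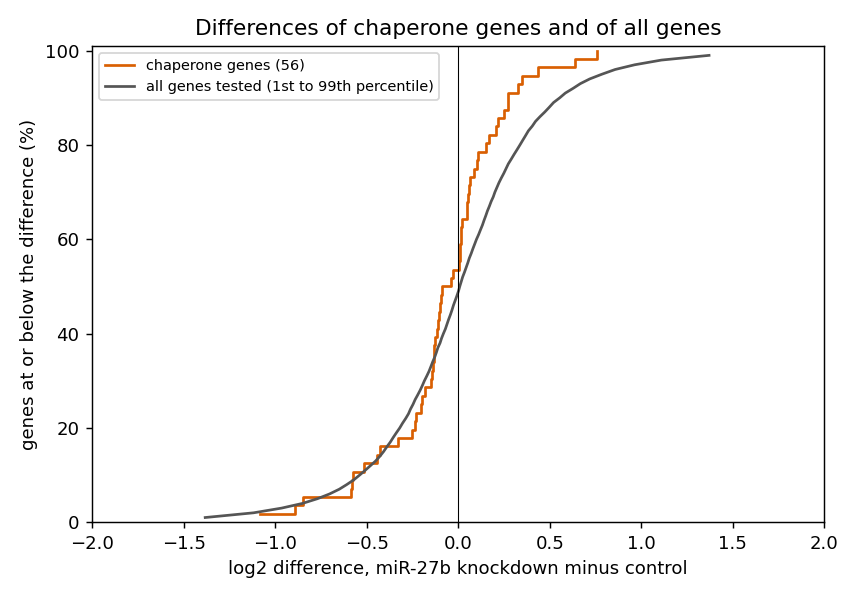
Cumulative share of genes (y axis, percent) against the log2 difference, miR-27b knockdown minus control (x axis), for the 56 chaperone genes (orange) and, from the 1st to the 99th percentile, for all genes tested (grey). The orange steps climb more steeply around 0, where 66.1% of chaperone genes and 49.4% of all genes lie within 0.25 of no difference.

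**Figure D2:**
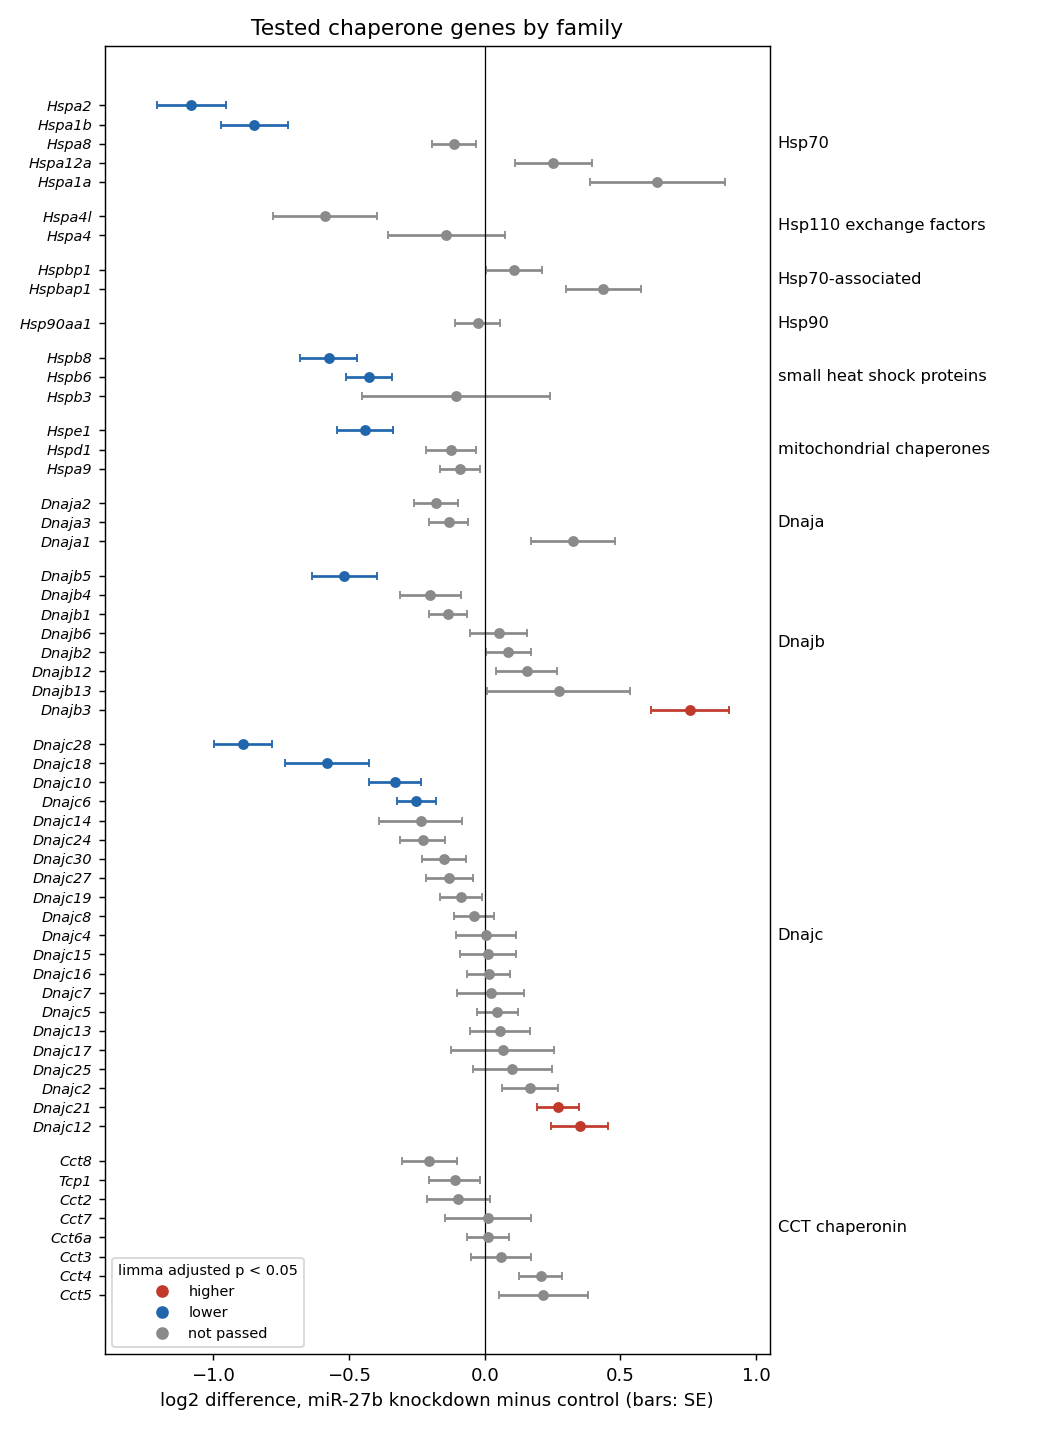
Log2 difference, miR-27b knockdown minus control (x axis), of each of the 56 tested chaperone genes by family (y axis). Points are limma estimates from 3 arrays per group, bars are standard errors, and colours give the call: 3 genes higher (red), 10 lower (blue) and 43 not passed (grey). The lower calls lie in the Hsp70, small heat shock, mitochondrial, Dnajb and Dnajc groups, and the CCT chaperonin has none.

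Among the 5 tested Hsp70 genes, 2 were lower (40%, against 15.4% of all genes), none was higher (against 17.1%) and 3 did not pass. Hspa2, a member best known for its role in sperm development and also expressed in brain, had log2 intensities of 11.71, 11.68 and 11.44 in knockdown neurons, against 12.71, 12.86 and 12.50 in control neurons. The groups lay far apart and did not overlap. The difference was -1.08 (SE 0.13, 95% interval -1.38 to -0.78, adjusted p = 0.00171), and knockdown intensity was 0.473 times that of control neurons. Its other detected probe differed by -0.997 (SE 0.10, adjusted p = 0.00133 over all detected probes), so both probes were lower.

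Hspa1b, which encodes a stress-inducible Hsp70, read 7.17, 7.07 and 6.75 in knockdown neurons, against 7.93, 7.81 and 7.80 in control neurons. Each knockdown array was below each control array. The difference was -0.85 (SE 0.12, adjusted p = 0.00364). Hspa1a, its near-identical neighbour, read 7.76, 7.51 and 6.99 in knockdown neurons, against 7.02, 6.97 and 6.37 in control neurons. The groups overlapped, because knockdown replicate 3 fell just below control replicate 1, yet each knockdown array was above the control array of its own number. The difference of 0.64 (SE 0.25) did not pass, with an adjusted p of 0.0944, and it passed with the replicate block, with an adjusted p of 0.00774, as it did without knockdown replicate 3 (0.85, adjusted p = 0.0377). The 2 genes share nearly all of their sequence, so which transcript each probe measured is uncertain.

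The promoters of this pair are printed because the genes had differences of opposite sign. The 250 bases before each gene start are from RefSeq (GRCm38.p6), as chr17:34959239-34959488 for Hspa1b and chr17:34972157-34972406 for Hspa1a, both on the minus strand and written 5′ to 3′ in gene direction. Capitals mark heat shock element cores, the letters GAANNTTC or TTCNNGAA, each of which reads the same on both strands. Over the full windows of 300 bases, which add 50 bases after the gene start, 296 bases were identical between the genes (98.7%). Both hold the same core at the same distance from the gene start.
Hspa1b: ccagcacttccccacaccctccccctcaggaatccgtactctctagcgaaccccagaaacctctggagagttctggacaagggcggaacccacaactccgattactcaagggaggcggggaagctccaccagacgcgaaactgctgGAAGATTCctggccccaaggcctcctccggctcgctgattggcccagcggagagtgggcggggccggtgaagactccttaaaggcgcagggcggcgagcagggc
Hspa1a: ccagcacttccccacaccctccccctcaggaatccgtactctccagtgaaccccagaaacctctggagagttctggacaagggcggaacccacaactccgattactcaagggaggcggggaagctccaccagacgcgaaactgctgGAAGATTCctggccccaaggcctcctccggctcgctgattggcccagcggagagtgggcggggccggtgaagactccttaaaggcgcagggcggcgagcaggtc

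Hspa8, the constitutive Hsp70 of most cells, read 14.56, 14.46 and 14.64 in knockdown neurons, against 14.67, 14.61 and 14.72 in control neurons. The groups overlapped by 1 knockdown array, and the difference of -0.11 (95% interval -0.31 to 0.08, adjusted p = 0.336) did not pass. Its other 2 detected probes differed by -0.11 and -0.031. Hspa12a, a distant relative of the Hsp70 family, differed by 0.25 (adjusted p = 0.222).

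Of the nucleotide exchange factors of the Hsp110 group, neither tested gene passed. Hspa4l read 6.83, 6.96 and 6.65 in knockdown neurons, against 7.71, 7.00 and 7.50 in control neurons. Control replicate 2 lay just above the knockdown arrays and the other controls well above them. The difference of -0.59 (SE 0.19, adjusted p = 0.0571) did not pass, and without control replicate 2 it was -0.79 with an adjusted p of 0.0134. The limma adjusted p lay near the threshold under other processing. Hspa4l passed without background correction (0.0413), with offset 50 (0.0459), with median scaling (0.0362) and with a robust variance trend (0.0422). It did not pass with the replicate block (0.0783), cyclic loess (0.0576), array weights (0.0587) or without the detection filter (0.1). Hspa4 differed by -0.14 (adjusted p = 0.653). The third gene of this group, Hsph1, is carried on the array under an older symbol and so is no member by the rule. It read 12.16, 12.08 and 12.08 in knockdown neurons, against 12.66, 12.64 and 12.68 in control neurons, and was lower by a difference of -0.55 (SE 0.071, adjusted p = 0.00231). Among further members, Hspbap1 differed by 0.44 (adjusted p = 0.0531) and Hspbp1, an exchange factor, by 0.11 (adjusted p = 0.464). Neither passed. Both were grouped by family under the label Hsp70-associated, but the proteins they bind were not tested, and for Hspbap1 the label is only a grouping.

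J-domain proteins made up 32 of the tested genes, of which 3 were higher (9.38%, against 17.1% of all genes), 5 lower (15.6%, against 15.4%) and 24 did not pass. Their median difference was 0.008, and with median scaling -0.21, which is 0.085 below the median of all genes under that scaling. None of the 3 Dnaja genes passed in limma, and 0 had an unadjusted p under 0.05. Of all 10822 genes, 2499 were higher and 2289 lower at that unadjusted p. Dnaja1, a main Hsp70 partner of the cytosol, read 7.16, 7.54 and 7.45 in knockdown neurons, against 7.16, 6.79 and 7.22 in control neurons. The groups overlapped, and the difference of 0.33 had an adjusted p of 0.153.

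Of 8 tested Dnajb genes, Dnajb3 was higher (12.5%, against 17.1% of all genes), Dnajb5 lower (12.5%, against 15.4%) and 6 did not pass. Dnajb3, known mainly from testis, read 7.67, 7.41 and 7.40 in knockdown neurons, against 6.50, 6.97 and 6.74 in control neurons. The groups did not overlap, and the difference was 0.76 (SE 0.14, adjusted p = 0.00921). Without the pair of replicate 1 it was 0.55 with an adjusted p of 0.0687, and its other detected probe differed by 0.28 (SE 0.33, adjusted p = 0.568 over all detected probes). Dnajb5, a relative of Dnajb1, read 6.99, 7.00 and 7.29 in knockdown neurons, against 7.76, 7.47 and 7.61 in control neurons. Each control array was above each knockdown array, with a difference of -0.52 (SE 0.12, adjusted p = 0.0195). This call was lost without knockdown replicate 1 (adjusted p = 0.063), knockdown replicate 2 (0.0646), control replicate 1 (0.0679) or control replicate 3 (0.0511), with differences of -0.52 to -0.44.

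Dnajb1, the Hsp40 partner of stress-induced Hsp70, read 11.99, 11.98 and 12.04 in knockdown neurons, against 12.14 on each control array. The groups did not overlap but were close together, and the difference of -0.14 (95% interval -0.30 to 0.03, adjusted p = 0.179) did not pass. Dnajb6, which suppresses aggregation of polyglutamine proteins, differed by 0.051 (95% interval -0.20 to 0.30, adjusted p = 0.75), with 3 detected probes at 0.023 to 0.084.

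Of 21 tested Dnajc genes, 2 were higher (9.52%, against 17.1% of all genes), 4 lower (19%, against 15.4%) and 15 did not pass. Dnajc28 read 7.64, 7.37 and 7.63 in knockdown neurons, against 8.37, 8.56 and 8.38 in control neurons. The groups were well apart, with a difference of -0.89 (SE 0.11, adjusted p = 0.00183). Dnajc18 read 7.63, 7.52 and 7.38 in knockdown neurons, against 8.16, 8.33 and 7.78 in control neurons. The knockdown arrays were all below the control arrays, with a difference of -0.58 (SE 0.15, adjusted p = 0.0298). This call was kept without control replicate 3 and lost without any other single array, with adjusted p-values of up to 0.0933.

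Dnajc6, auxilin, which recruits Hsc70 to clathrin-coated vesicles, was among the brightest probes and had a small difference. It read 13.57, 13.53 and 13.53 in knockdown neurons, against 13.77, 13.76 and 13.85 in control neurons. The arrays of each group lay close together and the groups did not overlap. The difference was -0.25 (SE 0.071, adjusted p = 0.0366), or -0.27 on the other detected probe, and the call was lost when preparation was blocked (adjusted p = 0.0601) and when any 1 array was left out (adjusted p up to 0.103). Dnajc5, cysteine string protein, differed by 0.046 (95% interval -0.13 to 0.23, adjusted p = 0.679).

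Dnajc10, a disulphide reductase of the endoplasmic reticulum, read 11.13, 11.05 and 11.01 in knockdown neurons, against 11.51, 11.24 and 11.43 in control neurons. Every knockdown array was lower than every control array, and the difference was -0.33 (SE 0.097, adjusted p = 0.0404). The call was kept without control replicate 2 and lost without any other single array, with adjusted p-values of up to 0.126. Among the 4 endoplasmic reticulum genes that the rule left out, Dnajc3, an inhibitor of the kinase Perk, was lower by a difference of -0.38 (SE 0.11, adjusted p = 0.043) and 3 did not pass.

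The 2 higher Dnajc genes had small differences that their other probes did not show. Dnajc12, which in humans binds the aromatic amino acid hydroxylases, read 8.31, 8.53 and 8.25 in knockdown neurons, against 8.06, 8.08 and 7.90 in control neurons. The knockdown arrays were all above the control arrays, and the difference was 0.35 (SE 0.10, adjusted p = 0.0437). Its other detected probe differed by -0.13. This call was kept without knockdown replicate 3 and lost without any other single array (adjusted p up to 0.114). Dnajc21, linked to ribosome assembly in humans, read 9.64, 9.72 and 9.78 in knockdown neurons, against 9.49, 9.39 and 9.46 in control neurons. Every knockdown array was higher than every control array, and the difference was 0.27 (SE 0.078, adjusted p = 0.0392). The other probe, detected on 4 arrays, differed by -0.015 (SE 0.21). This call was lost with the replicate block (adjusted p = 0.0615) and when any 1 array was left out (adjusted p up to 0.114).

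**Figure D3:**
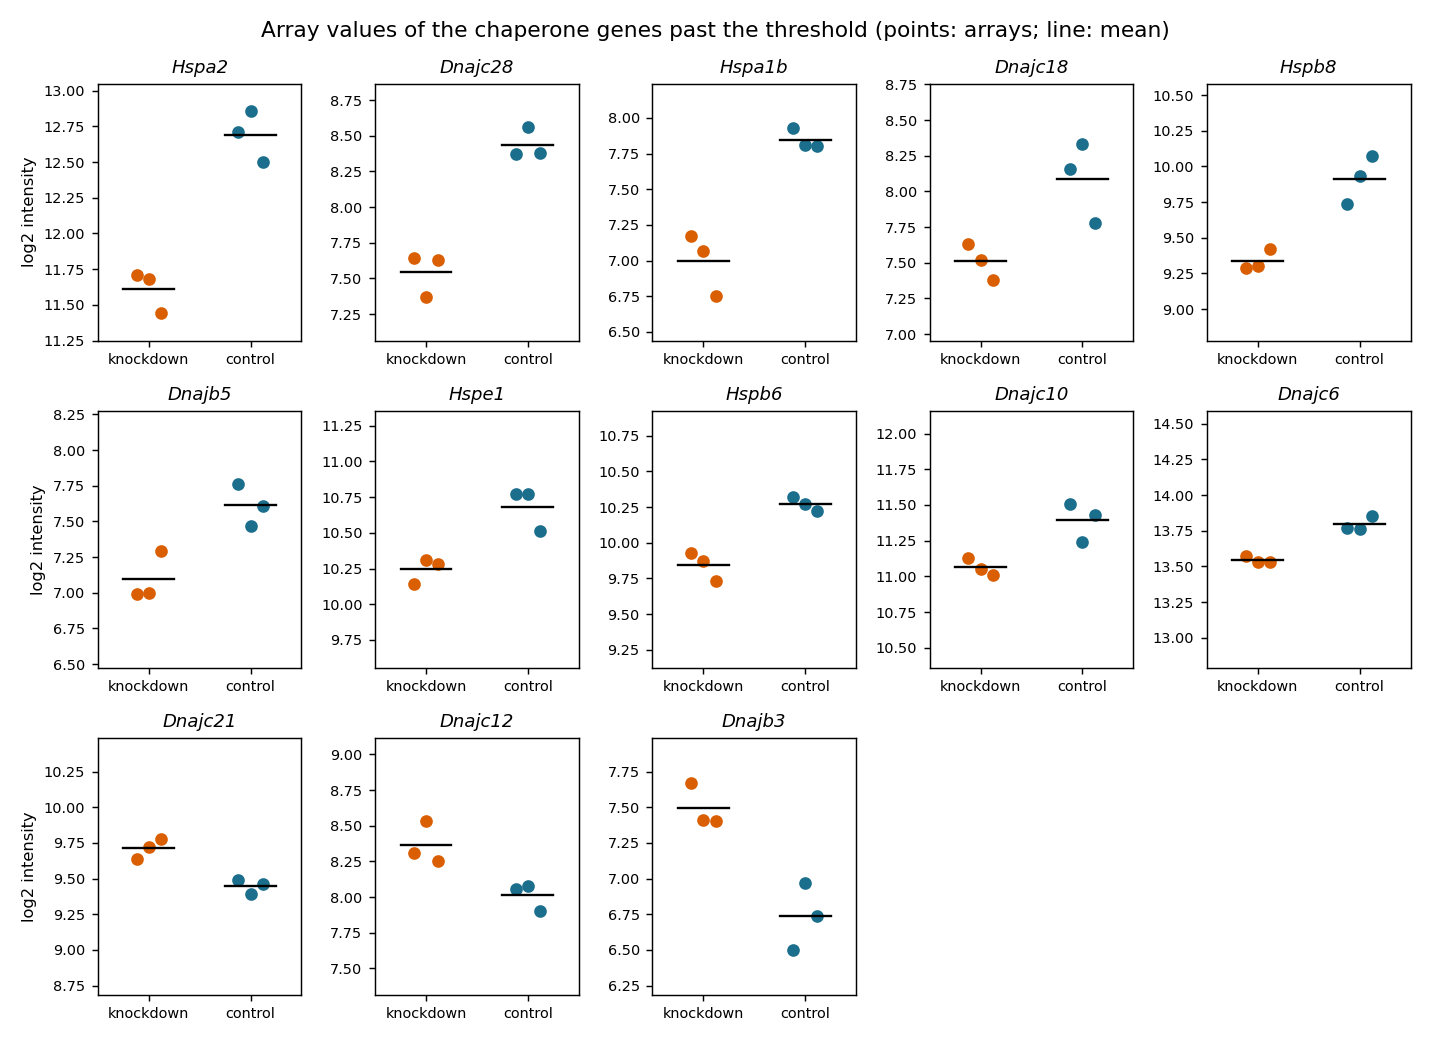
Log2 intensity (y axis) of the 13 chaperone genes that passed the test, with the 3 miR-27b knockdown arrays (orange) left of the 3 control arrays (blue) and lines at the group means. In all 13 panels the points of the groups are separate, and among the 13 the difference of the means is largest for Hspa2, at -1.08. Axes start above 0 and span the same number of log2 units in each panel.

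Hsp90 was represented by Hsp90aa1, the inducible Hsp90 gene, and Hsp90ab1 was not analysed here. The brightest Hsp90aa1 probe read 11.68, 11.52 and 11.55 in knockdown neurons, against 11.67, 11.60 and 11.55 in control neurons. The groups overlapped, and the difference of -0.026 (95% interval -0.22 to 0.17, adjusted p = 0.841) did not pass. A dimmer probe of the gene read 7.82, 7.63 and 7.95 in knockdown neurons, against 8.19, 8.51 and 8.22 in control neurons. It was lower by a difference of -0.51 (SE 0.13, adjusted p = 0.0298 over all detected probes), so the gene's probes gave different calls.

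Probes of 1 gene did not always give the same answer. Among the detected chaperone probes, 1 was higher, 11 were lower and 70 did not pass, where 13.9% of all detected probes were higher and 13.6% lower. Of the 23 genes with more than 1 detected probe, 8 had probes with differences of both signs. For Cct3, Cct6a, Dnajc5 and Dnajc8 among these, the difference of each detected probe was smaller than its standard error. Dnajc16 had a brightest probe at 0.015 and a dimmer probe at -0.53 (adjusted p = 0.0251 over all detected probes). Dnajb4 had its brightest probe at -0.20 (SE 0.12) and a dimmer probe at 0.23 (SE 0.22). Neither Dnajb4 probe passed (adjusted p of 0.248 and 0.488 over all detected probes). Hspa2 and Dnajc6 had all detected probes on the same side, as did Hspb8.

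**Figure D4:**
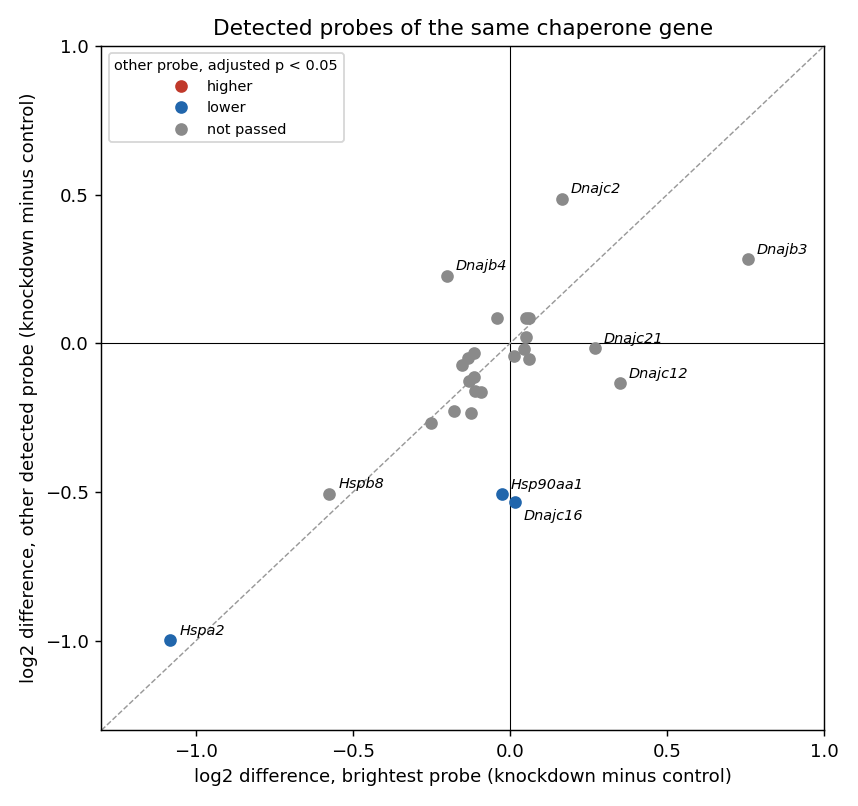
Log2 difference, miR-27b knockdown minus control, of each other detected probe (y axis) against that of the brightest probe of its gene (x axis), for the 23 chaperone genes with more than 1 detected probe. The dashed line marks equal differences and colour gives the call of the other probe. Hspa2 lies near the line at -1.08 and -0.997, while Hsp90aa1 and Dnajc16 lie near 0 on the x axis and at -0.51 and -0.53 on the y axis.

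Of the small heat shock proteins, 2 of 3 tested genes were lower (66.7%, against 15.4% of all genes) and none was higher (against 17.1%). Hspb8, which works with the exchange factor Bag3 in selective autophagy, read 9.29, 9.30 and 9.42 in knockdown neurons, against 9.74, 9.93 and 10.07 in control neurons. The highest knockdown array was below the lowest control array. The difference was -0.57 (SE 0.10, adjusted p = 0.00809), and the other detected probe differed by -0.51 (adjusted p = 0.0626 over all detected probes). The call was lost without the pair of replicate 2 (adjusted p = 0.0882).

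Hspb6, also known as Hsp20, read 9.93, 9.87 and 9.73 in knockdown neurons, against 10.32, 10.27 and 10.22 in control neurons. The groups did not overlap, and the difference was -0.43 (SE 0.085, adjusted p = 0.011). The call was lost without the pair of replicate 1 (adjusted p = 0.0804) or that of replicate 2 (0.0938). Hspb3 differed by -0.11 (SE 0.35, adjusted p = 0.842), and Hspb1, the main inducible member, was not detected. RefSeq gives Hspb6 2 promoter windows, of which 1 holds no heat shock element core. The other is printed, as that of a gene called lower, and its core begins 120 bases before the gene start (RefSeq, GRCm38.p6, chr7:30553051-30553300, plus strand, core in capitals).
Hspb6: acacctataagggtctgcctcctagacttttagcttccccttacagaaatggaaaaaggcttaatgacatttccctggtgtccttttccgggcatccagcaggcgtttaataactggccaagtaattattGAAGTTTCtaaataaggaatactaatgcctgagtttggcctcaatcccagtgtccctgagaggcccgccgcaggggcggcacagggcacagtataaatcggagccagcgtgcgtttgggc

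The mitochondrial matrix chaperones had differences below 0 for all 3 tested genes, and 1 was lower (33.3%, against 15.4% of all genes). Hspe1, the Hsp10 lid of the Hsp60 chamber, read 10.14, 10.31 and 10.28 in knockdown neurons, against 10.77, 10.77 and 10.51 in control neurons. The groups did not overlap, and the difference was -0.44 (SE 0.10, adjusted p = 0.0195). The call was lost without knockdown replicate 1 (adjusted p = 0.0622), control replicate 1 (0.0715) or control replicate 2 (0.0642), with differences of -0.40 to -0.39. Hspd1, the Hsp60 subunit that Hspe1 caps, read 12.56, 12.39 and 12.50 in knockdown neurons, against 12.68, 12.49 and 12.65 in control neurons. The groups overlapped and the difference of -0.12 (95% interval -0.34 to 0.09, adjusted p = 0.338) did not pass. The other detected Hspd1 probe differed by -0.235 (SE 0.133, limma adjusted p = 0.236 over all detected probes). Hspa9, the mitochondrial Hsp70, differed by -0.091 (95% interval -0.27 to 0.09, adjusted p = 0.396).

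Hspe1 and Hspd1 lie head to head and start within the same stretch of DNA. Of the 2 Hspd1 windows, 1 shares 285 of its 300 bases with the Hspe1 window, and each of these holds 3 overlapping heat shock element cores. The Hspe1 side is printed from RefSeq (GRCm38.p6, chr1:55087898-55088147, plus strand), because the pair shares this promoter while 1 of the 2 genes passed. The 2 differences were not compared with each other, and their 95% intervals overlapped (-0.69 to -0.19 for Hspe1, -0.34 to 0.09 for Hspd1). The capitals mark the 3 cores, the first of which begins 89 bases before the Hspe1 start.
Hspe1: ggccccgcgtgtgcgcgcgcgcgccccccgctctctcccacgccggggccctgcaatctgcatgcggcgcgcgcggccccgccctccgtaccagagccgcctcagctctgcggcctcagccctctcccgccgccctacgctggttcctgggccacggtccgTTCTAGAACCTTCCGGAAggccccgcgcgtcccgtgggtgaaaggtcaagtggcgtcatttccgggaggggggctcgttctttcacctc

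None of the 8 tested genes of the CCT chaperonin, the ring that folds actin and tubulin, passed the test. Their differences ran from -0.20 for Cct8 (adjusted p = 0.17) to 0.22 for Cct5 (adjusted p = 0.354), with a median of 0.013, or -0.17 with median scaling, 0.044 below the median of all genes there. Cct4, with a difference of 0.21 (SE 0.079, adjusted p = 0.091), was the 1 gene of the group with an unadjusted limma p under 0.05, and 1 gene was higher when limma used a robust variance trend. Of all 10822 genes, 2499 were higher and 2289 lower at that unadjusted p, and 2198 were higher with the robust trend. Tcp1 differed by -0.11 and Cct2 by -0.097. The 95% intervals of single subunits differed in width, at -0.17 to 0.20 for Cct6a, 0.02 to 0.40 for Cct4, -0.45 to 0.04 for Cct8 and -0.17 to 0.61 for Cct5.

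Of 51 co-chaperone and assembly genes outside the rule, 47 were tested, of which 5 were higher (10.6%, against 17.1% of all genes) and 5 lower (10.6%, against 15.4%). Their median difference was -0.08, against 0.009 over all genes. Nudcd3, a cofactor of Hsp90, had the largest difference among the genes called. It read 7.18, 7.24 and 7.06 in knockdown neurons, against 8.42, 8.40 and 8.17 in control neurons, a difference of -1.17 (SE 0.10, adjusted p = 0.000636) with no overlap. Hsbp1, a small protein that binds Hsf1, was lower by a difference of -0.58 (adjusted p = 0.00364), as was Sgtb, a partner of Hsp70, by -0.50 (adjusted p = 0.0281). Higher were Pdcl, a phosducin-like partner of CCT, by 0.53 (adjusted p = 0.00471), Grpel2, an exchange factor for mitochondrial Hsp70, by 0.52 (adjusted p = 0.0113), and Pih1d1, a subunit of the R2TP complex, by 0.42 (adjusted p = 0.0108). The counts were 3 higher and 3 lower without knockdown replicate 2, 3 higher and 2 lower without control replicate 1 or control replicate 2, and 3 higher without control replicate 3. Of all genes, 1309 were higher and 1204 lower without knockdown replicate 2. Without control replicates 1, 2 and 3 in turn, 1227, 1391 and 1529 of all genes were higher and 1018, 1211 and 1334 lower.

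Of 22 genes listed as induced by heat shock, 20 were tested, 11 of them chaperone genes described above, and 4 of the 20 were lower (Hspa1b, Hsph1, Hspb8 and Hspe1). None was higher in the unblocked limma fit, where before adjustment 3 genes had a p under 0.05 and were higher, and 6 were lower. Of all 10822 genes, 2499 were higher and 2289 lower at that unadjusted p. Hspa1a was higher with the replicate block or without knockdown replicate 3. The share lower was 20%, against 15.4% of all genes. The median difference of the list was -0.13, and 15 of its 20 genes lay below 0, as did 5271 of all 10822 genes. Hsf1 itself, the main regulator of the response, was not detected.

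Heat shock element cores were counted in the promoter windows of the 61 chaperone genes that had one in the RefSeq table. Some genes have several windows, and a gene was counted if any of them held a core. A core was present in 18 of these genes (29.5%), against 17% of all genes in that table. By window, 24.4% of the 78 chaperone windows held a core, against 15.1% of 32851 windows. Cores were found in 5 of 9 genes called lower with a window (Hspa1b, Hspb6, Hspb8, Hspe1 and Dnajc10), in 0 of 2 called higher, and in 10 of 36 that did not pass. These counts describe letters in the windows, and binding of a factor was not measured.

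Markers of other cells moved between the same arrays. Of 10 astrocyte markers 9 were tested, and 4 of them (Gfap, Aqp4, Slc1a2 and Aldoc) were lower (44.4%, against 15.4% of all genes). The other 5 did not pass (Gja1 -0.44, Fgfr3 -0.35, Slc1a3 -0.13, Aldh1l1 -0.09 and Sox9 -0.073), and S100b was not detected. The summed normalised intensity of the 9 astrocyte markers ran from 18480 to 23200 in knockdown neurons and from 24690 to 33890 in control neurons. Of 10 inhibitory neuron markers 9 were tested and 7 were lower (77.8%, against 15.4% of all genes), with Lhx6 not detected. The other 2, Dlx1 and Dlx2, differed by 0.082 and 0.096 and did not pass. The sum of the 9 inhibitory markers ran from 27650 to 34020 in knockdown neurons and from 54810 to 61410 in control neurons. The groups did not overlap in either sum.

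For 8 pan-neuronal markers, 6 were tested, with Snap25 and Nefl not detected. Rbfox3 and Eno2 were lower (33.3%, against 15.4% of all genes). Of the 6, 3 had differences below 0 and 3 above it (Map2 0.11, Tubb3 0.17 and Elavl4 0.24, none passing), with a median of -0.047. The sum of the 6, in which the brightest markers weigh most, ran from 42950 to 47010 in knockdown neurons and from 52970 to 55240 in control neurons. Excitatory neuron markers had 2 higher and 2 lower of 6 tested (33.3% each, against 17.1% and 15.4% of all genes). None of 4 tested oligodendrocyte or 5 tested vascular markers passed in the unblocked fit. The oligodendrocyte sum was 4815 to 7731 in knockdown neurons and 8291 to 11140 in control neurons, and the vascular sum 646.8 to 1181 in knockdown neurons and 585.6 to 673.5 in control neurons. Of the microglial markers 1 was tested and did not pass, and 8 were not detected. With the replicate block, Gja1 of the astrocyte markers, Olig1 and Cnp of the oligodendrocyte markers, Nrgn of the excitatory neuron markers and Pecam1 of the vascular markers were also lower, and Col1a1 of the vascular markers was higher (adjusted p from 0.0104 to 0.0385). In these bulk samples fewer cells of a type and less RNA per cell cannot be told apart, and the part of these markers in the lower chaperone genes, such as Hspa2, Hspb6 and Hspb8, was not tested.

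Of the 75 chaperone genes, 19 had no probe that met the detection rule. They include Hspb1, Hspb2, Hspb7 and Hspb9 of the small heat shock proteins, Hspa1l, Hspa12b, Hspa13 and Hspa14 of the Hsp70 group, and the subunits Cct6b and Cct8l1. Counted by arrays, most member probes lay clear of the detection limit: 76 were detected on all 6 arrays and 43 on none. Some of the 76 were dim, such as that of Hspa12a, at unnormalised intensities of 154 to 170.3 in knockdown and 128.1 to 152.9 in control neurons. By the count of arrays, nearest inside the limit were 4 probes detected on 4 arrays, of Cct3, Dnajb13, Dnajc21 and Dnajc30. Nearest outside it were 2 probes detected on 2 arrays. The outside probes belong to Dnaja3, at unnormalised intensities of 123.1 to 132.1 in knockdown and 115.6 to 150.1 in control neurons, and Dnajc28, at 101.8 to 114.5 in knockdown and 126.5 to 130.4 in control neurons. Both genes were tested through another probe. A gene that was not detected on these arrays may still be expressed below their background.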

How the data were processed

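Total RNA (500 ng) was labelled with biotin and read on an Illumina bead array, per the labels' protocols. Per the file headers, the authors deposited a non-normalized intensity for each probe on each array, together with its detection p-value. Their other table holds intensity values equal to the first after quantile normalisation (largest log2 gap 7.18e-10); it was used as an alternative. The scanner software is not given in the sources used here.

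Background was corrected with limma 3.58.1 in R 4.3.3 (neqc, normexp from detection p-values, offset 16), followed by quantile normalisation and log2. Probe names came from the platform annotation, with 35784 of 45281 probes named and 3273 symbols updated through a RefSeq table (GRCm38.p6). No member symbol was updated, and probes under older names were not added. Each gene took its brightest detected probe. Groups were compared with lmFit and eBayes over 10822 genes, or over all detected probes, with Benjamini-Hochberg adjustment and a threshold of 0.05. The fit was also run on simulated arrays with independent noise for each gene and no shared preparation, so that run cannot check the p-values against pairing. No chip or scan labels are given, so no batch was tested.

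Members, lists and the naming rule were chosen with earlier results of these data known. Named were members past the threshold, main members of each family, members whose probes disagreed, up to 6 co-chaperone genes past the threshold, and heat shock genes past it. Genes outside that rule, named after their values were seen, are Hspbap1, Hspbp1, Hspa12a, Hspb3, Cct4, Cct5, Cct8, Dnaja3, Dnajb12, Dnajb13, Dnajc3, Dnajc30, the markers and genes named as not detected. Deviations from the group means were correlated across genes between same-numbered arrays (0.15, 0.262 and 0.257), and the series describes 3 preparations. The numbers were therefore taken as pairs. Over the chaperone genes alone the same correlations were -0.055, 0.049 and 0.165, while those between arrays of different number ran from -0.309 to 0.311. Alternatives covered background correction, normalisation, starting values, filter, pairing, variance model, array weights, probe choice, gene names and leaving out arrays. Promoter windows (250 bases before to 50 after the gene start) came from RefSeq. Protein sequences were not used here, so a planned search for protein motifs was not run.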

Additional observations from a re-analysis of the deposited data

How the results depend on the processing

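The 38 named genes were refitted under the alternatives, except that Hspa1a and Hspa4l did not meet the stricter detection filter and Hsph1 has another name among the platform symbols. Of 871 values, 734 kept their direction and side of the threshold, while 95 no longer passed, 13 newly passed and 29 changed sign. These values are not independent, since the authors' table repeats the setting without background correction. The detection filters, the replicate block alone, the variance trend and the adjustment over probes left the differences as they were, so no sign could change there. With the replicate block, which pairs same-numbered arrays, 3 chaperone genes were higher and 9 lower, Dnajc21 and Dnajc6 no longer passed, and Hspa1a newly passed (adjusted p = 0.00774), as it did with array weights added (adjusted p = 0.00665). The block also made 1 heat shock inducible gene higher, against 0 without it, with and without array weights. It changed no other call among the members. Without each single array or pair in turn, chaperone genes called numbered 0 to 3 higher and 4 to 8 lower, co-chaperone genes 0 to 4 higher and 1 to 5 lower, and heat shock inducible genes 0 to 1 higher and 3 to 6 lower. Over all genes, 602 to 1674 were higher and 557 to 1433 lower in these fits, against 1852 higher and 1664 lower with all arrays. Of the 13 chaperone calls, 6 held without each single array (Hspa2, Dnajc28, Hspa1b, Dnajb3, Hspb8 and Hspb6) and 3 of these (Hspa2, Dnajc28 and Hspa1b) also without each pair.

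Median scaling gave 689 higher and 1310 lower genes among all tested, against 1852 higher and 1664 lower, with 2 higher and 7 lower chaperone genes, a chaperone median of -0.23, 0 higher and 3 lower co-chaperone genes, and 1 higher heat shock gene. Testing all 20294 genes without the detection filter left 1 higher and 8 lower chaperone genes and 3 higher and 2 lower co-chaperone genes, with more genes in the adjustment. Of the 20294 genes, 1464 were higher and 1257 lower. A robust variance trend gave 5 higher and 11 lower chaperone genes, 11 higher and 8 lower co-chaperone genes, and 2 higher and 7 lower heat shock genes. It gave 2198 higher and 2009 lower genes among all tested. Averaging the probes of a gene left 0 higher chaperone genes in limma (6 at an unadjusted p under 0.05 with the brightest probe), and adjusting over all probes left 1. Over all genes these counts were 1787 higher with averaging, 2499 at the unadjusted p and 1697 with adjustment over all probes. Except under these settings, the replicate block and those that leave out arrays, the counts of members and of both lists stayed within 1.5 times. The causes were not tested.

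Signs changed only for genes that did not pass. With median scaling Dnajb6 became -0.18, Dnajc5 -0.25, Cct3 -0.18, Cct6a -0.27 and Dnajc16 -0.14. With cyclic loess Cct6a was -0.009 and Dnajc16 0, and with array weights Dnajb6 was -0.001. With averaged probes Cct6a was -0.015, Dnajb4 0.014, Dnajc16 -0.26 and Dnajc8 0.022. With arrays or pairs left out, the differences ran from -0.076 to 0.007 for Hsp90aa1, -0.37 to 0.067 for Hspa4, -0.030 to 0.054 for Dnajc16, -0.064 to 0.16 for Dnajb6, -0.050 to 0.12 for Cct3 and -0.029 to 0.045 for Cct6a, and Cct2 was 0.037 without replicate 2. Dim probes lie close to background, which limits the size of their differences: without background correction Hspa1b differed by -0.59 and Dnajb3 by 0.49.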

Other observations

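On the array, 7 further probes carry older names of Hspa4l, Hspa13, Dnajc16 or Dnajc19 and were not counted as members. Of these, 1 was detected, for Dnajc16, and it differed by 0.22 (SE 0.11, adjusted p = 0.17 over all detected probes), beside the 0.015 and -0.53 of the Dnajc16 member probes.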
